A study of Mus musculus with 24 samples.

Results

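Neurons of the retina are sorted by the transmitter they release, and the genes described here make or move the transmitters of amacrine cells, the inhibitory interneurons of the inner retina. The 9 genes were taken by symbol, as Gad1, Gad2, Slc32a1, Slc6a9, Slc6a5, Chat, Slc18a3, Slc5a7 and Th, and each matched 1 of the 46603 annotated genes among the 126602 features of the count tables. The tables hold RNA sequencing of 24 whole mouse retinal organoids (MROs), grown from the wildtype embryonic stem cell line E14Tg2a. All 24 were controls that had received only water as solvent, and they were sampled singly at D20, D22, D25 and D30 of differentiation, with 6 MROs per timepoint. They came from 1 independent experiment and 1 cell line, so every spread and p-value below is one between organoids of a single culture.

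Most amacrine cells use GABA or glycine. GABA is made from glutamate by glutamate decarboxylase, whose 2 forms are encoded by Gad1 (GAD67) and Gad2 (GAD65). Slc32a1 encodes the vesicular transporter that loads both GABA and glycine into synaptic vesicles. Glycine is taken up at the plasma membrane by the product of Slc6a9 (GlyT1), the usual marker of glycinergic amacrine cells, and by that of Slc6a5 (GlyT2), which is best known from glycinergic neurons of the brainstem and spinal cord. Starburst amacrine cells also make acetylcholine, with choline acetyltransferase (Chat), the vesicular acetylcholine transporter (Slc18a3) and the choline transporter (Slc5a7), and a rare class makes dopamine, starting from tyrosine hydroxylase (Th). GABAergic genes are shared with horizontal cells and with inhibitory neurons of the brain, and Slc6a9 is also expressed by glia.

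Between 13634846 and 19477108 reads per MRO were assigned to a feature. Values are normalized CPM, which are counts scaled to a common library total by the TMM method of edgeR, and 3 reads in an MRO correspond to between 0.154 and 0.22 CPM, a limit that covers counting error only. The 14 genes of a pan-amacrine marker list all had enough reads to be tested, and their summed level ran from 603 to 1354 normalized CPM over the 24 MROs. Only 4 of the 9 transmitter genes, Gad1, Gad2, Slc32a1 and Slc6a9, reached a mean of 10 normalized counts, the minimum for a test. The other 5 had between 14 and 168 reads over all 24 MROs and are given by their reads.

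Gad1, Gad2 and Slc32a1 all lie on chromosome 2, on the plus strand of GRCm38, but far from each other. Gad1 (ENSMUSG00000070880) spans 70553072 to 70602014, Gad2 (ENSMUSG00000026787) 22622205 to 22693874 and Slc32a1 (ENSMUSG00000037771) 158610767 to 158615748. With the timepoint means removed, their levels correlated between organoids, with r from 0.59 to 0.79 for the pairs. At D25 they parted, since organoids 2 and 4 had 32.1 and 30.7 normalized CPM of Gad1 but the lowest Gad2. Organoid 1 of D25 had the highest Gad2 and the lowest Slc32a1. Because of that partial likeness, stretches upstream of RefSeq start sites of the 3 genes (GRCm38.p6, plus strand, 5′ to 3′) are shown. Those of Gad2 and Slc32a1 end before the first base that GENCODE annotates as an exon of the gene. That of Gad1 lies inside the GENCODE span of the gene, before a RefSeq start site further in. They cover chr2:70561879-70562041 for Gad1, chr2:22622077-22622204 for Gad2 and chr2:158610508-158610757 for Slc32a1, and capitals mark matches to the searched motifs on either strand.
Gad1: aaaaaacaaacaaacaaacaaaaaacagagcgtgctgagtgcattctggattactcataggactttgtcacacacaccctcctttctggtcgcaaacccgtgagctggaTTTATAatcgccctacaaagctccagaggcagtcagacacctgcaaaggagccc
Gad2: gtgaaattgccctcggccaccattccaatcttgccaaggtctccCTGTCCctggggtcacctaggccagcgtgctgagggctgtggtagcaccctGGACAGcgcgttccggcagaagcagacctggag
Slc32a1: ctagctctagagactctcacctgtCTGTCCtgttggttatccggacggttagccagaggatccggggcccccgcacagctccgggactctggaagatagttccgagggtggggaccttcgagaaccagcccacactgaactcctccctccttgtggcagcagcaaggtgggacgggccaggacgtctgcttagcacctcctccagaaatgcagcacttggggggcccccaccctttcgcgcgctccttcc
Searched were the E-box letters CAGCTG and CATCTG, the homeodomain core TAATTA, the TATA box TATAAA, and the letters GGACAG and TCAGCACC of the repressor element that keeps neuronal genes silent outside neurons, none of which overlap where they matched. GGACAG occurred once on each strand in Gad2 and once on the minus strand in Slc32a1, while Gad1 held 1 TATAAA on the minus strand. In windows of 250 bases before the start, GGACAG was found in 18.67% and TATAAA in 12.37% of 32851 RefSeq promoters, and the stretches of Gad1 and Gad2 are shorter than those windows. TAATTA, found in 4.84% of all windows, was in none of the 3 stretches.

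Levels of different genes can be set against each other only per length of the gene. Per kb of annotated exon, Gad2 averaged 6.10 ± 3.17 (SD over the 24 MROs) normalized CPM, Slc6a9 5.83 ± 2.06, Gad1 2.90 ± 2.35 and Slc32a1 1.59 ± 0.809. The means of Gad2 and Slc6a9 differed by less than either SD, and those of Gad1 and Slc32a1 by less than the SD of Gad1. The order changed with time. At D20 Gad2 led with 7.29 ± 3.19 normalized CPM per kb (SD, n = 6), ahead of Slc6a9 with 3.77 ± 0.595 and Gad1 with 1.42 ± 1.34. At D25 Slc6a9 led with 8.13 ± 1.59, ahead of Gad2 with 5.14 ± 1.89 and Gad1 with 3.29 ± 1.08. At D30 the means of Gad2 (7.32 ± 4.89), Gad1 (5.24 ± 3.28) and Slc6a9 (5.08 ± 0.845) lay within 1 SD of Gad2. The remaining genes averaged between 0.0147 (Slc18a3) and 0.0609 (Chat) normalized CPM per kb, far below Slc32a1.

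**Figure D1:**
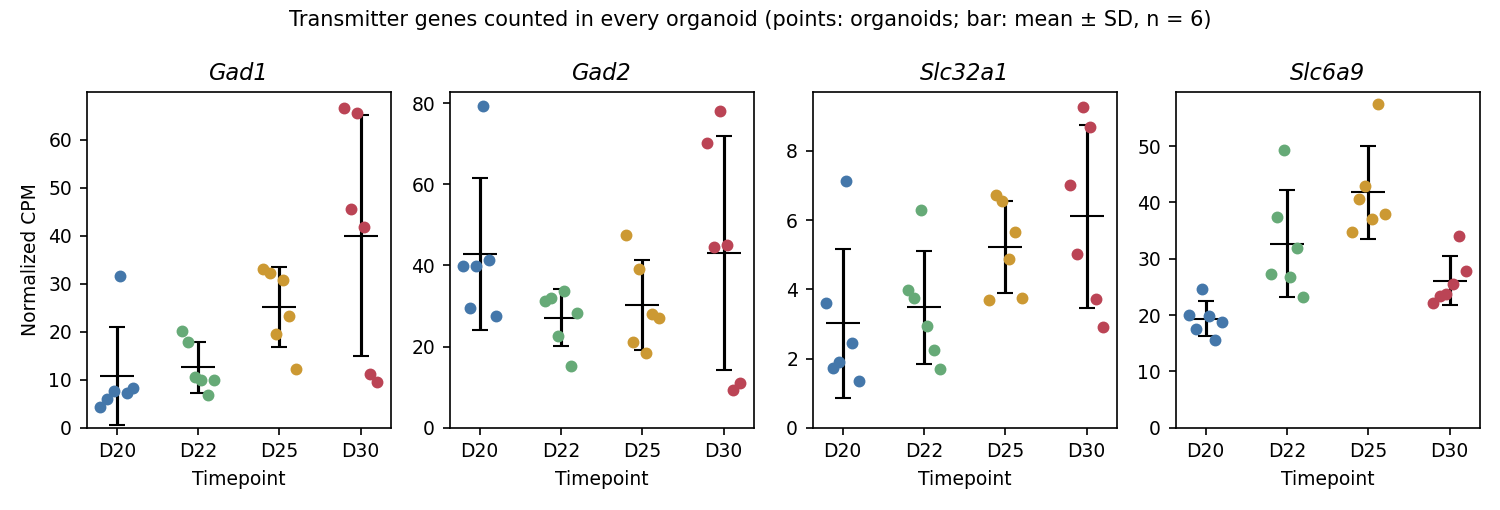
Normalized CPM (vertical axis, from 0) of Gad1, Gad2, Slc32a1 and Slc6a9 at 4 timepoints, with 1 point per organoid and bars for the mean ± SD of 6 organoids. Mean Gad1 is highest at D30, where 4 organoids lie at 41.9 or above and the other 2 at 11.1 or below, and Slc6a9 is highest at D25.

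Of the 4 tested genes, Gad1 had the largest rise between the first and the last timepoint. Its lowest, median and highest values were 4.36, 7.39 and 31.5 normalized CPM at D20, 6.87, 10.3 and 20.2 at D22, 12.3, 27.0 and 33.0 at D25, and 9.64, 43.7 and 66.6 at D30. Organoid 4 was far above the other D20 organoids, and organoids 5 and 6 were far below the other D30 organoids, so that the groups overlapped. The means were 10.8 ± 10.2 (SD, n = 6) at D20 and 40.0 ± 25.1 at D30, and the log2 fold change was 1.88 (SE 0.52, adjusted p = 0.00666, edgeR's quasi-likelihood test). Gad1 was the only one of the 4 tested genes to rise past the threshold of 0.01 from D20 to D30, where 13.8% of all tested features rose. Slc32a1 and Slc6a9 rose by 1.01 (adjusted p = 0.0218) and 0.43 (0.0262) on the log2 scale, short of that threshold. Since whole organoids were sequenced, more cells that express a gene cannot be told apart from more RNA of it per cell.

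The call for Gad1 rested on few organoids and on the fit. Without a filter on low counts the adjusted p was 0.0126 (Gad1 D30 vs D20, log2 fold change 1.91), and with only the compared timepoints in the fit it was 0.045 (1.88). The call held in 15 of 24 fits that each left out 1 organoid, with adjusted p from 0.000235 without organoid 4 of D20 to 0.0176 without organoid 3 of D30. In the consecutive steps Gad1 did not pass. D22 against D20 gave a log2 fold change of 0.21 (adjusted p = 0.887), D25 against D22 one of 1.00 (0.242) and D30 against D25 one of 0.67 (0.564). D30 against D22 gave 1.67 (0.0167).

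Gad2, the second decarboxylase gene, followed another course. The lowest, median and highest values were 27.5, 39.9 and 79.2 normalized CPM at D20, 15.2, 29.8 and 33.6 at D22, 18.5, 27.5 and 47.6 at D25, and 9.41, 44.8 and 78.0 at D30. The same organoids stood out as for Gad1, with organoid 4 highest at D20 and organoids 5 and 6 lowest at D30. From D20 to D30 the log2 fold change was 0.01 (95% interval -0.82 to 0.84, adjusted p = 0.993), and the change did not pass in any of the 6 comparisons or in the joint test of all 4 timepoints (adjusted p = 0.443).

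Within single organoids, Gad2 reads became fewer per Gad1 read, a ratio in which the library size cancels. The lowest, median and highest ratio were 2.51, 5.05 and 9.08 at D20, 1.54, 2.17 and 3.37 at D22, 0.602, 1.32 and 2.19 at D25, and 0.848, 1.06 and 1.19 at D30. All D30 organoids lay below all D20 organoids, including organoids 5 and 6, in which both genes were low. Geometric means fell from 4.71 to 1.04 between D20 and D30, a log2 difference of -2.18 (exact two-sided permutation test, p = 0.00216, the smallest that 6 against 6 organoids allow; adjusted p = 0.0433 over 20 ratio tests). The step from D20 to D22 gave -1.08 (exact permutation test, p = 0.0108, adjusted 0.108) and that from D22 to D25 -0.89 (exact permutation test, p = 0.0346, adjusted 0.231), neither of them past 0.05. The spread of the log2 ratio was smallest at D30, with an SD of 0.174 against 0.648 at D20, 0.415 at D22 and 0.788 at D25.

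**Figure D2:**
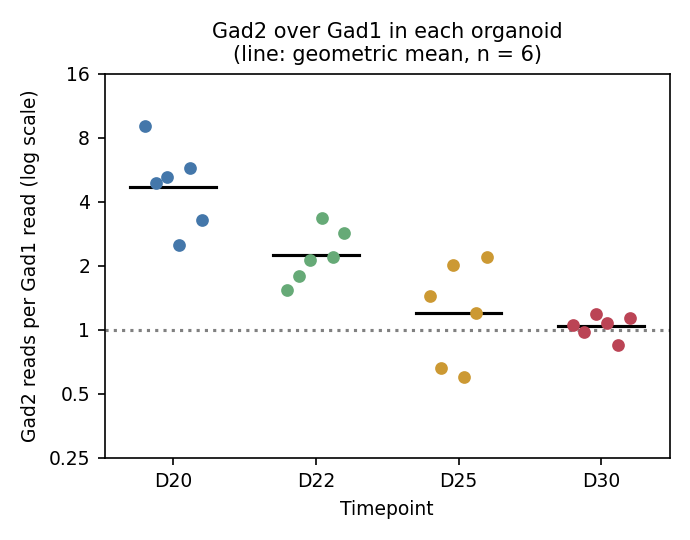
Reads of Gad2 per read of Gad1 (vertical axis, log scale) in each of 6 organoids at 4 timepoints, with 0.5 added to each count and lines for geometric means. The geometric mean is 4.71 at D20 and 1.04 at D30, and every D30 organoid lies below every D20 organoid.

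Slc32a1, which fills vesicles with either inhibitory transmitter, was the least abundant of the 4 tested genes. Its lowest, median and highest values were 1.34, 2.18 and 7.12 normalized CPM at D20, 1.70, 3.34 and 6.28 at D22, 3.71, 5.26 and 6.74 at D25, and 2.91, 6.01 and 9.28 at D30. The ranges overlapped throughout, and organoid 4 of D20 again lay above the D22, D25 and several D30 values. The log2 fold change from D20 to D30 was 1.01 (SE 0.35, adjusted p = 0.0218), short of the threshold. DESeq2 called it (adjusted p = 0.00733). Per read of Gad1 and Gad2 together, Slc32a1 had a geometric mean of 0.0526 reads at D20 and 0.0888 at D30, a log2 difference of 0.76 that did not pass (exact permutation test, p = 0.0584, adjusted 0.242).

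Slc6a9 (ENSMUSG00000028542, chromosome 4 from 117834506 to 117875198, plus strand) rose and then fell. Its coefficient of variation between organoids was the lowest of the 4 tested genes at D20 (0.158), D25 (0.196) and D30 (0.167), while at D22 it was 0.291 against 0.259 for Gad2. Its lowest, median and highest values were 15.6, 19.3 and 24.7 normalized CPM at D20, 23.2, 29.7 and 49.3 at D22, 34.8, 39.3 and 57.5 at D25, and 22.1, 24.6 and 34.0 at D30. All D25 organoids lay above all D20 and all D30 organoids. The mean rose from 19.4 ± 3.06 (SD, n = 6) at D20 to 32.7 ± 9.51 at D22, a log2 fold change of 0.75 (SE 0.15, adjusted p = 0.00252), in a step in which 1.88% of all tested features changed in either direction and no other transmitter gene passed. From D20 to D25 the log2 fold change was 1.11 (SE 0.15, adjusted p = 1.05e-06), where 8.11% of all features rose. From D25 to D30 Slc6a9 fell by 0.68 in log2 terms (SE 0.15, adjusted p = 0.00338), to 26.1 ± 4.35 normalized CPM, as did 1.71% of all features.

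Slc6a9 was also the only one of the 4 genes to pass the joint test of all timepoints (adjusted p = 2.51e-06, 27.3% of all features called), with Gad1 at 0.0131. The difference between its last step and the one before was -1.04 on the log2 scale (SE 0.26), which did not pass after adjustment over all features (adjusted p = 0.109, with 0.0532% of features called). The earlier difference, between the second step and the first, was -0.40 (0.562, with 0.0405% called). Leaving out organoid 3 of D22 moved the first rise to an adjusted p of 0.0117. The fall after D25 was lost without organoid 5 of D25 (0.0200), without organoid 2 of D30 and without organoid 3 of D30. From D22 to D25, where 5.02% of all features were called, edgeR and DESeq2 called none of the 4 genes, 1 of them had an unadjusted p under 0.05 in edgeR and 2 in DESeq2. From D22 to D30, with 21.4% called, edgeR called none, with 3 at an unadjusted p under 0.05, and DESeq2 called Gad1.

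Slc6a9 shares sequence with genes on the opposite strand. Its annotated exons overlap those of Ccdc24 by 1429 bases, of Gm17114 by 511 and of B4galt2 by 46, and the strand setting of the counting is not given in the sources used here. Ccdc24 rose with Slc6a9, with a log2 fold change of 0.81 between D20 and D22 (adjusted p = 0.00337), and it rose again between D22 and D25, by 0.83 (0.00096). It averaged 34.5 ± 4.75 normalized CPM at D25 and 25.3 ± 4.39 at D30, a log2 change of -0.45 (adjusted p = 0.109). Its part in the Slc6a9 values was not tested. Slc32a1 overlaps Gm14205 by 697 bases, which had 30 reads over all 24 organoids against 1716 for Slc32a1.

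Genes with the most similar courses over the 24 organoids were ranked by Pearson's r of log2 normalized CPM among 12559 annotated genes, as a description. Gad1 was closest to Xpr1 (0.90), Pid1 (0.90) and Pcdhgc4 (0.89), and Gad2 to Dlx1 (0.82), Ptpn4 (0.74) and Cntn6 (0.73). Slc32a1 was closest to Adamts16 (0.83), Adarb2 (0.81) and Gad1 (0.79), while Slc6a9 was closest to Ndrg1 (0.92), Ttyh2 (0.92) and Rhbdf2 (0.91). With the timepoint means removed, so that only differences between organoids of the same age remained, the closest included Pid1 (0.83) and Xpr1 (0.82) for Gad1, Grik3 (0.86), Sp8 (0.82) and Dlx1 (0.81) for Gad2, Kcnip1 (0.77), Adamts16 (0.75) and Adarb2 (0.73) for Slc32a1, and Gbf1 (0.87), Srebf1 (0.84) and Zbtb7a (0.82) for Slc6a9. No gene was shared between the lists of Slc6a9 and those of the 3 GABAergic genes. Between the members themselves, the remaining r was 0.79 for Gad1 with Gad2, 0.65 for Gad1 with Slc32a1 and 0.59 for Gad2 with Slc32a1, against -0.24, -0.35 and 0.23 for Slc6a9 with each of them.

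Genes of inhibitory neurons of the forebrain moved with the GABAergic genes. Dlx6os1, a noncoding RNA of the Dlx5 and Dlx6 locus and a marker of forebrain interneurons, had more than 10 normalized CPM in 8 organoids and at most 6.86 in the other 16. These 8 were organoid 4 of D20 (49.1), organoids 1, 3 and 6 of D25 (75.1, 20.2 and 29.2) and organoids 1 to 4 of D30 (146, 71.8, 69.4 and 58.9). They include the D20 organoid and the 4 D30 organoids with the highest Gad1 and Gad2, whereas at D25 the highest Gad1 values were shared by organoid 1 and by organoids 2 and 4, whose Dlx6os1 was 0 and 0.706. Organoid 6 of D20 (5.76), organoid 5 of D25 (5.59) and organoid 5 of D30 (6.86) lay between these 8 and the rest, which had at most 1.16. The cut at 10 was chosen after the values were seen, and no pooled correlation is given.

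Of 13 genes on the forebrain list, 9 could be tested, and their summed level ran from 56.9 to 231 normalized CPM at D20. It ran from 48.3 to 65.7 at D22, from 46.6 to 230 at D25, and at D30 from 32.1 to 385. From D22 to D30, where 11.3% of all features rose and 21.4% changed in either direction, 5 rose, with Dlx6os1 by 7.82, Sp8 by 6.20, Sp9 by 6.03 and Dlx6 by 5.86 on the log2 scale, and 1, Maf, fell by 0.57 (median 4.96, against -0.07 over all features). From D20 to D30 none rose and Maf fell. Defining genes of the ventral forebrain were near 0, since Nkx2-1 had no read in 22 and Lhx8 in 23 of 24 organoids. Dlx1, Dlx2 and Dlx5, also on the list, are known from developing retina as well. Of 10 genes of the cerebral cortex list, 1 rose from D20 to D30 and 1 fell, where 13.8% of all features rose and 13.0% fell. Slc17a7, which photoreceptors and bipolar cells also express, rose (32.8 to 192 normalized CPM), and Fezf2 fell (17.4 to 5.12). From D22 to D30, 4 of the 10 rose and 0 fell (median 2.53, against -0.07 over all features), where 11.3% of all features rose. Neurod6, also on the amacrine subtype list, was among them (3.32 to 93.4 normalized CPM). With the Dlx6os1 level as a covariate, the log2 change of Gad1 from D20 to D30 was 1.17 (adjusted p = 0.0645, edgeR).

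**Figure D3:**
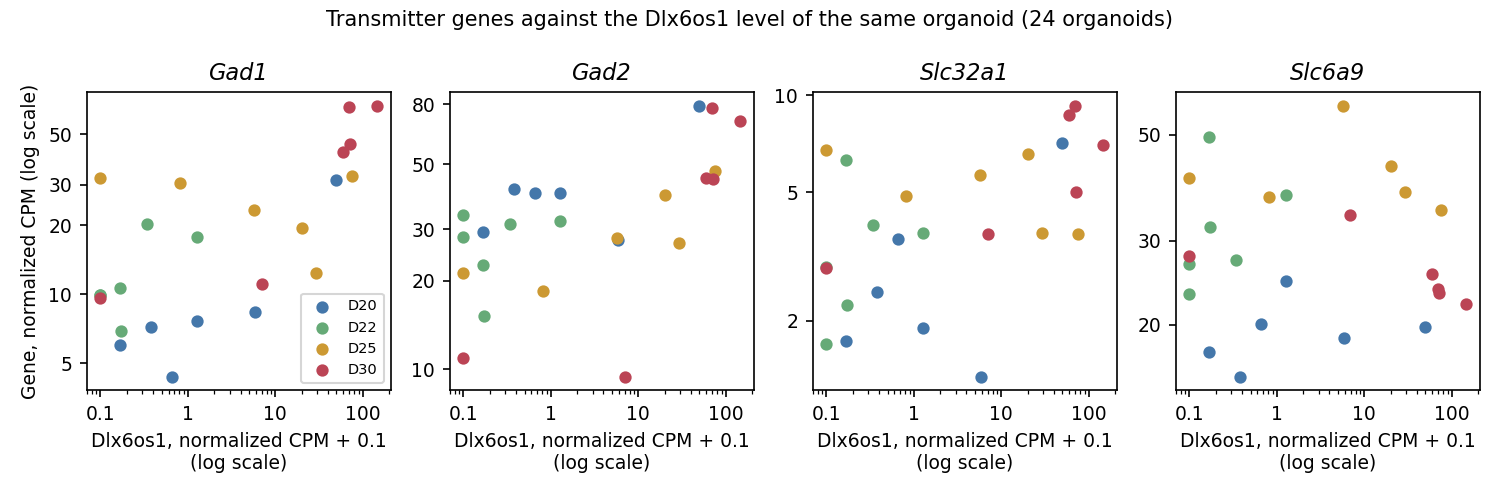
Normalized CPM of Gad1, Gad2, Slc32a1 and Slc6a9 (vertical axes, log scale) against normalized CPM of Dlx6os1 plus 0.1 (horizontal axis, log scale) in the same organoid, 1 point for each of 24 organoids, coloured by timepoint. The 4 D30 organoids with Dlx6os1 between 58.9 and 146 hold Gad1 levels of 41.9 or above, and the 2 with 6.86 or less hold 9.64 and 11.1.

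Genes that mark amacrine cells in general moved in both directions while Slc6a9 rose. From D20 to D25, 2 of the 14 pan-amacrine genes rose, Tfap2a and Tfap2b, and 4 fell, Prox1, Pax6, Tfap2c and Barhl2, where 8.11% of all features rose and 6.89% fell. Tfap2b, a transcription factor of most amacrine cells picked here after its values were seen, averaged 32.4 ± 9.33 normalized CPM at D20 and 121 ± 47.3 at D25, with 87.0 ± 49.7 in between and 33.1 ± 11.0 at the end. It rose between D20 and D25 (log2 fold change 1.89, adjusted p = 0.000536) and fell between D25 and D30 (-1.86, 0.00238). Within timepoints, Pearson's r of Slc6a9 with Tfap2b was 0.40 over 24 organoids (permutation p = 0.108, adjusted 0.192 over 32 relations) and Spearman's rho 0.23 (permutation p = 0.332, adjusted 0.462). Without the 2 organoids farthest from the median r was 0.36, and in the timepoints in order it was -0.29, 0.85, 0.60 and -0.45. Of the 14 pan-amacrine genes, 3 rose from D20 to D30 and 3 fell (median 0.01, against -0.04 over all features). In that comparison 13.8% of all features rose and 13.0% fell. Calb1 rose by 2.37, and Barhl2, Tfap2c and Pax6 fell by 2.35, 1.85 and 1.44. Calb1 also marks horizontal cells. Of the 7 tested genes of the horizontal cell list, 2 rose between D20 and D30, Calb1 and Slc4a3, the latter by 1.11. The 2 that fell were Onecut1 (21.7 to 0.734 normalized CPM) and Onecut2 (40.7 to 16.6). In that comparison 13.8% of all features rose and 13.0% fell. The list sum stayed between 235 and 325 normalized CPM over all organoids, and Sept4, Tpm3 and Prox1 had the highest means of the list at each timepoint.

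Of 8 tested genes that handle GABA, 4 rose from D25 to D30 and none fell, where 1.76% of all features rose (median 0.53, against -0.0034 over all features). Among them, Aldh5a1 and Abat, which break GABA down, rose by 0.83 (adjusted p = 0.00921) and 0.59 (0.00885) on the log2 scale, and glutamine synthetase (Glul) by 0.67 (0.00729). The GABA transporter Slc6a11 (GAT3) averaged 4.31 ± 3.32 normalized CPM at D20 and 32.2 ± 8.87 at D30, and rose by 2.90 (1.60e-05). Most of that rise came by D25 (2.47, adjusted p = 0.000183), and D30 against D25 gave 0.43 (0.667). Abat had fallen by 0.75 between D20 and D22 (0.00193), and its means of 56.1 normalized CPM at D20 and 55.8 at D30 gave a log2 fold change of -0.0093 (0.969). Glul is a defining gene of Müller glia, and the summed level of 8 Müller glia genes ran from 1051 to 1367 normalized CPM at D20 and from 1389 to 4388 at D30, with 5 of 8 rising from D25 to D30. Their part in the changes of Glul, Aldh5a1 and Abat was not tested.

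All 8 genes of glycine metabolism and anchoring were tested. From D20 to D30, 2 rose and 3 fell (median 0.07, against -0.04 over all features), where 13.8% of all features rose and 13.0% fell. Gephyrin (Gphn), which anchors glycine and GABA-A receptors at synapses, rose by 0.94 (adjusted p = 2.09e-09). Shmt1, Gldc and Shmt2, which make or cleave glycine, fell by 1.33, 1.03 and 1.02. Of 6 genes of vesicle proteins and the glutamate transporters that fill vesicles, 4 rose in the same comparison (median 1.44). They were Slc17a7 (VGLUT1, of photoreceptors and bipolar cells) by 2.55, Sv2b by 1.45, Sv2a by 1.42 and Sv2c by 1.08, against 1.01 for Slc32a1, which did not pass.

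Acetylcholine and dopamine genes, and Slc6a5, were near the limit of detection. Slc6a5 (ENSMUSG00000039728, chromosome 7 from 49910146 to 49963856) had 168 reads in all, with 0 reads in 6 organoids. By timepoint its lowest, median and highest counts were 0, 0.5 and 14 reads at D20, 0, 3.5 and 18 at D22, 3, 8 and 25 at D25, and 2, 8.5 and 17 at D30. It was counted in 3 of 6 organoids at D20 and D22 and in 6 of 6 at D25 and D30. Per read of Slc6a9 its geometric mean was 0.00531 at D20 and 0.0175 at D30, a difference that did not pass (exact permutation test, p = 0.126, adjusted 0.313). A list of 12 genes of the hindbrain, spinal cord and autonomic system summed to at most 20.7 normalized CPM, reached in D20, and 1 of the 12 could be tested.

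Chat (ENSMUSG00000021919) and Slc18a3 (ENSMUSG00000100241) form 1 locus on chromosome 14, minus strand, where Slc18a3, from 32462438 to 32464850, lies inside the span of Chat, from 32408203 to 32465989, without sharing an exon. Chat had 108 reads in 24 organoids, with a median of 2, 1.5, 5.5 and 5 reads at D20, D22, D25 and D30 and a highest value of 19 at D25. It was counted in all 6 organoids at D30 and in 3 or 4 at each other timepoint. Slc18a3 had 14 reads in all, none of them at D22, and never more than 3 in an organoid, so that no value rose above the 3 reads taken here as the floor.

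Slc5a7 (ENSMUSG00000023945, chromosome 17 from 54273590 to 54299034, minus strand) was counted mainly at D30. It had 43 of its 55 reads there, with 10, 1, 14, 12, 6 and 0 reads in organoids 1 to 6, against 3, 3 and 6 reads in all at D20, D22 and D25 and never more than 3 in an organoid before D30. In the fit without a filter, its log2 fold change from D20 to D30 was 3.44 (SE 1.38, adjusted p = 0.062) and its joint test gave an adjusted p of 0.0442. Over the amacrine subtype list, 4 of 17 tested genes rose from D20 to D30 and 2 fell (median 0.49), where 13.8% of all features rose and 13.0% fell. The largest rise was that of the neuropeptide gene Npy, by 3.74 (adjusted p = 5.6e-05). Ebf3 and Ebf1 fell by 1.73 (1.62e-08) and 1.51 (7.1e-06). Of the starburst genes on the list, Megf10 and Megf11, receptors that space these cells, rose by 1.94 (adjusted p = 3.74e-08) and 1.52 (5.68e-05). Chrm2, a muscarinic receptor, rose by 3.23 (8.42e-06), all of these from D20 to D30. Fezf1, another starburst gene, had no read in 13 organoids. Isl1 and Sox2, which starburst cells also express, did not pass over that interval (0.73, adjusted p = 0.0337, and 0.08, 0.849). Isl1 averaged 22.9 normalized CPM at D20, 15.4 at D25 and 38.1 at D30, and its rise after D25 passed (0.00337). Megf10, Chrm2 and Isl1 are also expressed outside amacrine cells. Of 6 tested genes of acetylcholine handling, Slc44a1, a choline transporter of many cell types, rose by 1.33 (1.38e-13), and Chka fell by 0.37 (0.000731).

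Th (ENSMUSG00000000214, chromosome 7 from 142892752 to 142931128, minus strand) was counted at the first and the last timepoint. Its reads in organoids 1 to 6 were 5, 6, 4, 10, 1 and 0 at D20 and 0, 2, 12, 5, 0 and 3 at D30. At D22 no organoid had a read, and at D25 organoid 1 had 2. In the fit without a filter the joint test gave an adjusted p of 0.0119, and none of the 5 genes below the filter passed 0.01 in any of 9 tests each by edgeR, while 13 of these 45 tests had an unadjusted p under 0.05. DESeq2 was not run without the filter. Some partner genes were as scarce. The dopamine transporter gene Slc6a3 had no read in 16 organoids and at most 0.217 normalized CPM, and Ddc was at most 0.817. Others were not. Slc18a2, the vesicular transporter on the list, was counted in every organoid and averaged 1.93 normalized CPM at D20 and 1.14 at D30. Pts, Spr and Qdpr averaged 6.46, 16.7 and 23.4 at D20. The noradrenaline transporter gene Slc6a2 was also measured well. It averaged 19.4 normalized CPM in the D20 and 1.57 in the D30 organoids, a fall (log2 fold change -3.62, adjusted p = 3.92e-14). Of 8 tested genes of dopamine handling, Maob rose by 2.87 (0.00179) and Qdpr fell by 0.47 (0.00664) in the same comparison. There, 13.8% of all features rose and 13.0% fell.

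**Figure D4:**
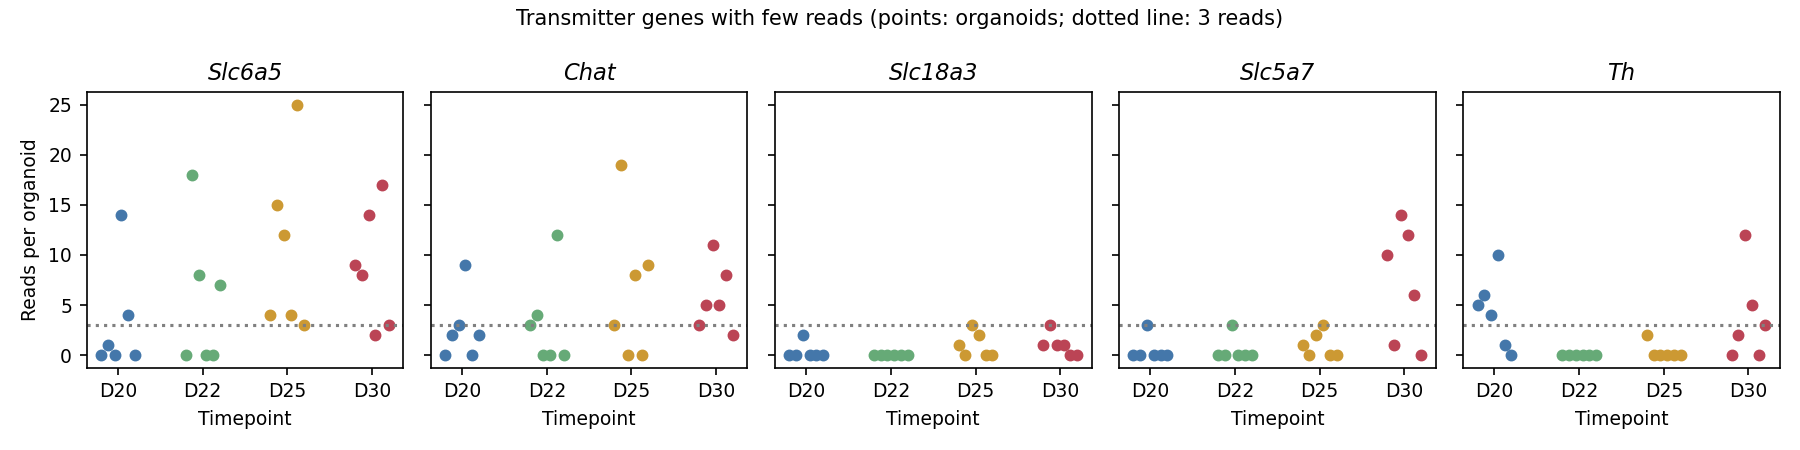
Reads per organoid (vertical axis) of Slc6a5, Chat, Slc18a3, Slc5a7 and Th at 4 timepoints, 1 point for each of 6 organoids, with a dotted line at 3 reads. Slc5a7 exceeds 3 reads only at D30, Th has no read at D22, and Slc18a3 never exceeds 3.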

How the data were processed

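Individual MROs were sequenced from rRNA-depleted, strand-specific libraries. The authors trimmed reads (cutadapt 1.5), aligned them with HISAT2 to GRCm38, assembled new loci with StringTie (1.3.3) and counted with HTSeq (0.6.1). The deposited values are raw counts per gene or assembled locus. Timepoints were taken from the sample labels. Features averaging 10 or more normalized counts were kept (46949) and tested in 1 fit of all 24 organoids by edgeR's quasi-likelihood test (4.0.16, R 4.3.3) with TMM normalization, Benjamini-Hochberg adjustment over all features and a threshold of 0.01. SEs were derived from the test statistic. Ratios had 0.5 added to each count and were tested by exact permutation at 0.05.

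The 9 genes and all gene lists were chosen with earlier results of these data known. In the lists, mostly up to 4 genes past the threshold with the largest changes were named, and at times all of them. Genes at or near 0 were named besides. Tfap2b, Ccdc24, Gm14205, Slc6a3, Ddc, Slc18a2, Pts, Spr, Isl1 and Sox2 were chosen after their values were seen. Some genes are not reported here. Symbols and coordinates came from GENCODE vM21, promoters from RefSeq. All pairs of organoids of 1 timepoint differed by more than sampling noise (lowest chi-square 6.00 per degree of freedom). Scripts were tested on simulated counts, and figures were drawn with matplotlib (3.10.9) in Python (3.11.15). Alternatives were DESeq2 (1.42.0), its size factors, other filters, annotated genes only, a replicate block, fits of the compared timepoints only and the omission of each organoid. Omitting the organoids rich in Dlx6os1 and adding Dlx6os1 as a covariate were chosen after seeing the data.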

Additional observations from a re-analysis of the deposited data

Results flagged for a closer look

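Values of 9 genes at 4 timepoints were screened for an organoid that stood apart from the other 5 of its timepoint, by Dixon's test at the 95% level. Of 36 groups 11 were marked, where chance marks about 1 in 20, and the groups are not independent because the same organoid recurs. Organoid 4 of D20 was the highest for Gad1 (31.5 normalized CPM), Gad2 (79.2), Slc6a5 (0.923) and Chat (0.593), and its Dlx6os1 was the highest of D20, at 49.1. Organoid 5 of D25 was the highest for Slc6a9 (57.5), and organoid 5 of D22 for Chat (0.842). The remaining marks rest on 2 or 3 reads. They are organoid 3 of D20 for Slc18a3 (0.136) and Slc5a7 (0.204), organoid 3 of D22 for Slc5a7 (0.196), organoid 2 of D30 for Slc18a3 (0.184) and organoid 1 of D25 for Th (0.114). The low Gad1 and Gad2 of organoids 5 and 6 of D30 were not marked, since the test looks for a single organoid.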

How the results depend on the processing

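Counts of tested genes past 0.01 changed as follows. From D20 to D30 the count was 1, and it was 2 by DESeq2 and with the replicate block (Gad1 and Slc32a1), and 0 without a filter, with only the compared timepoints in the fit, and with Dlx6os1 as a covariate. From D22 to D30 it was 0, and 1 by DESeq2 (Gad1). Among 4 timepoints it was 1, and 2 by DESeq2 and with its size factors. Without the organoids rich in Dlx6os1 it was 3 among 4 timepoints, 1 from D22 to D25, 2 from D20 to D25, 0 from D25 to D30 and 1 from D22 to D30, and Gad2 turned to -1.40 (Gad2 D30 vs D22, adjusted p = 0.000277) and to -1.78 (Gad2 D30 vs D20). That setting leaves 2 organoids at D30 and removes the D20 organoid and the 4 D30 organoids with the highest Gad1 and Gad2, so those Gad1 and Gad2 values follow from the choice and test nothing. Slc6a9 then changed by -0.53 from D25 to D30 (Slc6a9 D30 vs D25, adjusted p = 0.512). Filtering with filterByExpr or testing annotated genes only changed no call. Omitting each organoid in turn gave 0 to 1 genes from D20 to D22, D25 to D30 and D22 to D30, 1 to 3 from D20 to D25 and among 4 timepoints, 0 to 2 from D20 to D30, 0 to 0 from D22 to D25 and for both step differences, and 1 to 1 ratios past 0.05. Without organoid 4 of D20, Gad1 and Slc32a1 also passed from D20 to D25. Both step differences had 0 calls by edgeR and DESeq2, with 0 (early, 0.0405% of features called) and 1 (late, 0.0532%) unadjusted p under 0.05 in each.

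Replicate numbers did not pair the organoids, since same-numbered organoids of different timepoints correlated at -0.0918 to 0.257 in their deviations from the timepoint means (mean 0.0135 over 36 pairs), and 7 of 24 correlated best with their own number. With the number as a block, Slc32a1 D30 vs D20 passed (log2 fold change 1.02, adjusted p = 0.00677). In an exact sign-flip test over the numbers, 0 of 20 ratios passed, where 6 pairs cannot pass after adjustment. Causes of these changes were not tested.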
